A study of Mus musculus with 6 samples.

Results

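The complement genes described here are C1qa, C1qb, C1qc, C1ra, C1s1, C3, C4b, Serping1 and C3ar1, chosen by gene name as components, regulators and a receptor of the complement system. They are 9 of the 13673 genes of the deposited expression table. All 9 had a mean of at least 1 FPKM (fragments per kilobase of transcript, scaled for sequencing depth) over the 6 libraries and entered the fit with the 12238 genes that passed this filter. RNA came from the trigeminal ganglion (TG), the sensory ganglion of the face, of mice of WT genotype, and the labels give the cells as neurons and glia. One group of 3 libraries came from mice that had received CFA, which is complete Freund's adjuvant, mycobacterial material in oil used to provoke inflammation. The other 3 came from mice injected with saline, titled CON, and tissue of both groups was taken on day 3. The sources used here do not give strain, sex, age or injection site, nor do they state that each library is a separate animal. The p-values therefore reflect only how these libraries vary, which may in part be technical.

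Complement is a cascade of proteins that marks microbes, debris and synapses for removal. In its classical arm, C1q binds a surface or an antibody and activates the proteases C1r and C1s, which cleave C4 and C2, and the complex formed in this way cleaves C3. C3 fragments coat the target and the small fragment C3a signals through its receptor, while the C1 inhibitor, encoded by Serping1, blocks C1r and C1s. In nervous tissue, C1q is made mainly by macrophages and microglia, and C4 and C1 inhibitor also by glial and stromal cells.

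The table's coordinates are those of GRCm38 and were identical to GENCODE M21 for all 9 genes. The C1q genes lie side by side on the minus strand of chromosome 4, within 18675 bases: C1qb at chr4:136880129-136886187, C1qc at chr4:136889804-136893065 and C1qa at chr4:136895917-136898803. The gap between C1qb and C1qc was 3616 bases and that between C1qc and C1qa 2851 bases. The promoter windows of C1qb and C1qc are printed here because these neighbours were both higher in every CFA library than in every saline library. They are RefSeq sequences of GRCm38.p6, from 250 bases before to 50 after the start of the RefSeq gene model, read 5′ to 3′ on the minus strand, and capitals mark GAGGAA, a purine-rich core bound by ETS factors such as the myeloid factor PU.1, or its reverse complement. The windows are chr4:136886151-136886450 for C1qb and chr4:136892865-136893164 for C1qc. The RefSeq starts are not those of the expression table: that of C1qb lies just upstream of the start given above, and that of C1qc lies inside the gene as given above.
C1qb: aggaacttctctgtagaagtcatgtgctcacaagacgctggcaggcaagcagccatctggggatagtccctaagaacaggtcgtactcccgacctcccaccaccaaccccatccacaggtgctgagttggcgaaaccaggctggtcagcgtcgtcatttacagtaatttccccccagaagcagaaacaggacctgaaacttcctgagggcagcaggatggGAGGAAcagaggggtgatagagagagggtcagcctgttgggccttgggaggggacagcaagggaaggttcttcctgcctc
C1qc: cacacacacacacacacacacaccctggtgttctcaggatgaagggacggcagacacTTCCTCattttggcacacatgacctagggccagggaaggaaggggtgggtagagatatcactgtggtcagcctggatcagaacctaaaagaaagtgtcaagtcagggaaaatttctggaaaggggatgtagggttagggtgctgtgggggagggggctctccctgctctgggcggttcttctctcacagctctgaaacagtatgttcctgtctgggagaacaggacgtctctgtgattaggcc

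Each of these windows held 1 match to GAGGAA, on the printed strand in C1qb and on the other strand in C1qc. Among all 32851 promoter windows of the same length, 28.3% held this motif on either strand, so a match is common. RefSeq windows were matched for 6 of the 9 genes, and C1qa, C4b and Serping1 were not matched. C1ra held 1 GAGGAA match and 1 match to the interferon-gamma activated core TTCNNNGAA, which was present in 8.30% of all windows. The interferon-stimulated response core (GAAA, any 2 bases, GAAA), present in 3.44% of all windows, was found in none of the windows of these 6 genes. The C1s1, C3 and C3ar1 windows held no match to any of the 3 motifs.

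FPKM totals per library ranged from 261183 to 275152, and the numbers of reads behind them are not given, so the counting error of each value is unknown. Genes of the sensory neuron list were detected in every library, from Ntrk3 at 5.11 to 7.75 FPKM to Tubb3 at 686 to 974 FPKM. Some libraries differed in ways that the groups do not explain. The summed level of the 10 neutrophil markers was 335 FPKM in CFA replicate 2 and 587 FPKM in saline replicate 3, against 60.2 to 86.2 FPKM in the other 4 libraries. The pituitary gene Gh, which encodes growth hormone, ranged from 157 to 3482 FPKM across libraries of both groups. In bulk tissue, a change in the number of cells of a type and a change in RNA per cell cannot be told apart.

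Of the 9 complement genes, 8 had a higher mean log2(FPKM + 1) after CFA and C1s1 had a lower one, although C1ra and C3 lay near 0 and changed sign under other scalings, C1ra under 3 and C3 under 1. None passed a Benjamini-Hochberg adjusted p of 0.05 in limma over all genes tested, a threshold that 0.0572% of the tested genes passed. At an unadjusted p below 0.05 in the same limma fit there were 4 of 9, C1qa, C1qb, C1qc and C4b, all higher after CFA. Over all genes tested, 8.32% were below that p, 5.37% higher and 2.95% lower. For 5 of 9, the same 4 with C3ar1, every CFA library exceeded every saline library, which held for 7.89% of all genes. The saline mean of C3ar1, 0.989 FPKM, was under the minimum of 1 FPKM, so this gene passed the filter only through its CFA libraries. None of the 9 was lower in every CFA library, which held for 6.66% of all genes. The median log2 fold change of the 9 genes was 0.17, and that of all genes tested was 0.0052. An exact permutation test on 1 gene in 3 against 3 libraries cannot go below a p of 0.1. Fold changes and their standard errors (SE) are on the log2(FPKM + 1) scale, which understates the change of low genes.

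**Figure D1:**
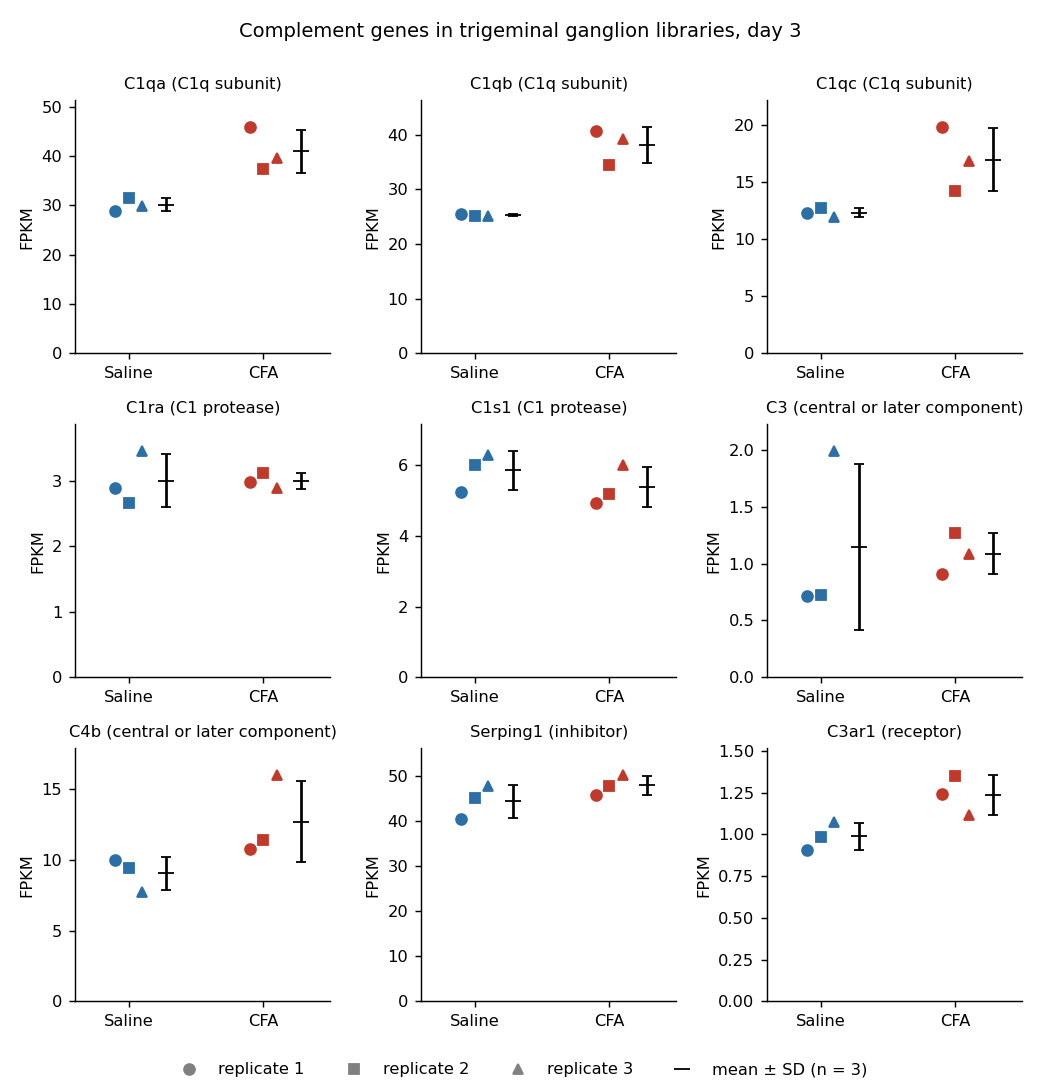
FPKM (vertical axes, from 0) of the 9 complement genes in each saline and CFA library on day 3; points are libraries, shaped by replicate, and bars are the mean ± SD (n = 3). The CFA points lie above all saline points for C1qa, C1qb, C1qc, C4b and C3ar1, and saline replicate 3 stands alone for C3 at 1.99 FPKM.

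The C1q subunits had the lowest p-values of the 9 complement genes, and their CFA and saline libraries were separate. C1q, the recognition molecule of the classical arm, is assembled from the products of all 3 genes. C1qb, which encodes the B chain, was at 40.7, 34.4 and 39.2 FPKM in CFA replicates 1 to 3 and at 25.4, 25.2 and 25.1 FPKM in saline replicates 1 to 3. The saline libraries lay almost on top of each other, and the lowest CFA library, replicate 2, was well above them. The mean was 38.1 ± 3.25 FPKM after CFA and 25.2 ± 0.183 FPKM after saline (SD, n = 3), a fold of 1.51. The log2 fold change was 0.57 (SE 0.0811, 95% interval 0.38 to 0.77), with a limma adjusted p of 0.132.

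C1qa, the A chain gene, was at 45.8, 37.4 and 39.7 FPKM in CFA replicates 1 to 3 and at 28.9, 31.6 and 29.9 FPKM in saline replicates 1 to 3. The groups did not overlap, and the CFA libraries were spread more widely than the saline ones. The mean of 41.0 ± 4.37 FPKM after CFA was 1.36 times the saline mean of 30.1 ± 1.34 FPKM (SD, n = 3). On the log2 scale the difference was 0.43 (SE 0.0930, 95% interval 0.20 to 0.65), with a limma adjusted p of 0.262.

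C1qc, the C chain gene, had the lowest level of the subunits, at 19.8, 14.2 and 16.8 FPKM in CFA replicates 1 to 3 and at 12.2, 12.7 and 11.9 FPKM in saline replicates 1 to 3. CFA replicate 2 was again the lowest of its group, and the nearest to the saline libraries, which it still exceeded. The means were 16.9 ± 2.77 and 12.3 ± 0.402 FPKM (SD, n = 3), a fold of 1.38 and a log2 fold change of 0.42 (SE 0.120, 95% interval 0.13 to 0.71), with a limma adjusted p of 0.444. All 3 subunits followed one order among the CFA libraries, with replicate 1 highest, then replicate 3, then replicate 2.

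The subunits were also set against each other within each library. The C1qb to C1qc ratio of FPKM was 2.06, 2.42 and 2.33 in CFA replicates 1 to 3 and 2.08, 1.98 and 2.10 in saline replicates 1 to 3, and the groups overlapped. The C1qa to C1qb ratio was 1.13, 1.09 and 1.01 after CFA and 1.14, 1.25 and 1.19 after saline, so it was lower in every CFA library, with CFA replicate 1 just under saline replicate 1. The C1qa to C1qc ratio overlapped between the groups. These ratios are descriptions and were given no test.

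The C1 proteases, whose zymogens travel with C1q in the C1 complex, did not share the C1q pattern. C1ra, at chr6:124512405-124523443 on the plus strand, encodes C1r, which activates itself once C1q has bound. Its level was 2.99, 3.13 and 2.89 FPKM in CFA replicates 1 to 3 and 2.90, 2.67 and 3.45 FPKM in saline replicates 1 to 3. All CFA values lay inside the saline range, and the log2 fold change was 0.0018 (95% interval -0.24 to 0.25, limma adjusted p = 0.997). The mean in FPKM itself was lower after CFA by a negligible amount, 3.00 against 3.01 FPKM.

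C1s1, at chr6:124530345-124542359 on the minus strand, encodes C1s, the protease that cleaves C4 and C2. It was at 4.93, 5.18 and 6.02 FPKM in CFA replicates 1 to 3 and at 5.25, 6.02 and 6.30 FPKM in saline replicates 1 to 3. The groups overlapped across most of their range, with a log2 fold change of -0.11 (95% interval -0.36 to 0.15, limma adjusted p = 0.771). The intervals of both proteases lie below the C1qb estimate of 0.57. However, the C1ra interval overlaps those of C1qa (0.20 to 0.65) and C1qc (0.13 to 0.71), and the C1s1 interval overlaps that of C1qc. The difference in response between the genes was not tested. An exon of Gm16567 on the opposite strand overlaps C1s1; the kit was stranded, but the sources used here do not say whether the quantification used strand. C1rb and C1s2, close copies of the protease genes, were looked up and had no entry among the deposited genes. Reads shared with them would make both protease values uncertain.

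C4b, at chr17:34728380-34743882 on the minus strand, encodes complement C4, the first substrate of C1s. Its level was 10.75, 11.42 and 15.99 FPKM in CFA replicates 1 to 3 and 10.01, 9.446 and 7.760 FPKM in saline replicates 1 to 3. The groups did not overlap, but CFA replicate 1 and saline replicate 1 lay close together, and the widest gap was between the libraries numbered 3. The mean of 12.7 ± 2.85 FPKM after CFA was 1.40 times the saline mean of 9.07 ± 1.17 FPKM (SD, n = 3). The log2 fold change was 0.43 (SE 0.164, 95% interval 0.041 to 0.83), with a limma adjusted p of 0.578. It was 0.27 without CFA replicate 3 and 0.17 without both libraries numbered 3. C4a, a near-identical copy, was looked up and had no entry among the deposited genes, and the share of reads that belongs to C4b alone is uncertain.

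C3, at chr17:57203970-57228136 on the minus strand, encodes the protein on which all arms of the cascade converge. It was near the filter, at 0.908, 1.27 and 1.08 FPKM in CFA replicates 1 to 3 and at 0.718, 0.728 and 1.99 FPKM in saline replicates 1 to 3. Saline replicate 3 alone set the top of the range, and every CFA library exceeded the other saline libraries. With all libraries the log2 fold change was 0.0084 (95% interval -0.54 to 0.55, limma adjusted p = 0.995). Without saline replicate 3 it was 0.27, with a limma adjusted p of 0.774, while the FPKM means of all libraries, 1.09 and 1.14, differed in the other direction. Saline replicate 3 also held the highest neutrophil marker sum and 396 FPKM of the myeloid gene Lyz2, against 52.5 to 84.8 FPKM elsewhere, and the part of these cells in its C3 value was not tested.

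Serping1, at chr2:84765387-84775444 on the minus strand, encodes C1 inhibitor and had the highest mean level per length of the 9 genes, at the 92.7th percentile of all genes deposited, including those under the filter. It was at 45.9, 47.8 and 50.2 FPKM in CFA replicates 1 to 3 and at 40.4, 45.1 and 47.7 FPKM in saline replicates 1 to 3. The groups overlapped, since saline replicate 3 lay above CFA replicate 1. The means were 47.9 ± 2.17 and 44.4 ± 3.72 FPKM (SD, n = 3), with a log2 fold change of 0.11 (95% interval -0.092 to 0.31, limma adjusted p = 0.721).

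C3ar1, at chr6:122847138-122856161 on the minus strand, encodes the C3a receptor of myeloid cells and had, with C3, the lowest level of the 9 genes. It was at 1.24, 1.35 and 1.11 FPKM in CFA replicates 1 to 3 and at 0.907, 0.987 and 1.07 FPKM in saline replicates 1 to 3. The groups did not overlap, with CFA replicate 3 just above saline replicate 3. The log2 fold change was 0.17 (95% interval -0.053 to 0.39, limma adjusted p = 0.658).

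Within a library, the ratio of activator to inhibitor transcripts removes any scaling that the genes share. The C1qb to Serping1 ratio of FPKM was 0.887, 0.721 and 0.781 in CFA replicates 1 to 3 and 0.629, 0.559 and 0.525 in saline replicates 1 to 3. It was higher in every CFA library, as was the C1qa to Serping1 ratio, while the C1qc to Serping1 ratio overlapped. The C1qb to C1s1 ratio was also higher in every CFA library, at 8.25, 6.65 and 6.52 against 4.84, 4.19 and 3.98. Serping1 itself stood higher relative to C1s1, the gene of one of its targets, in every CFA library, at 9.30, 9.22 and 8.34 against 7.692, 7.498 and 7.582. Relative to C1ra, the gene of its other target here, it overlapped between the groups, at 15.35, 15.29 and 17.38 against 13.94, 16.90 and 13.82. The C4b to C1s1 ratio was 2.18, 2.20 and 2.66 after CFA and 1.91, 1.57 and 1.23 after saline, also without overlap. C4b relative to C1qb overlapped between the groups. These ratios were given no test, and those with the same gene below the line are not independent of each other.

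**Figure D2:**
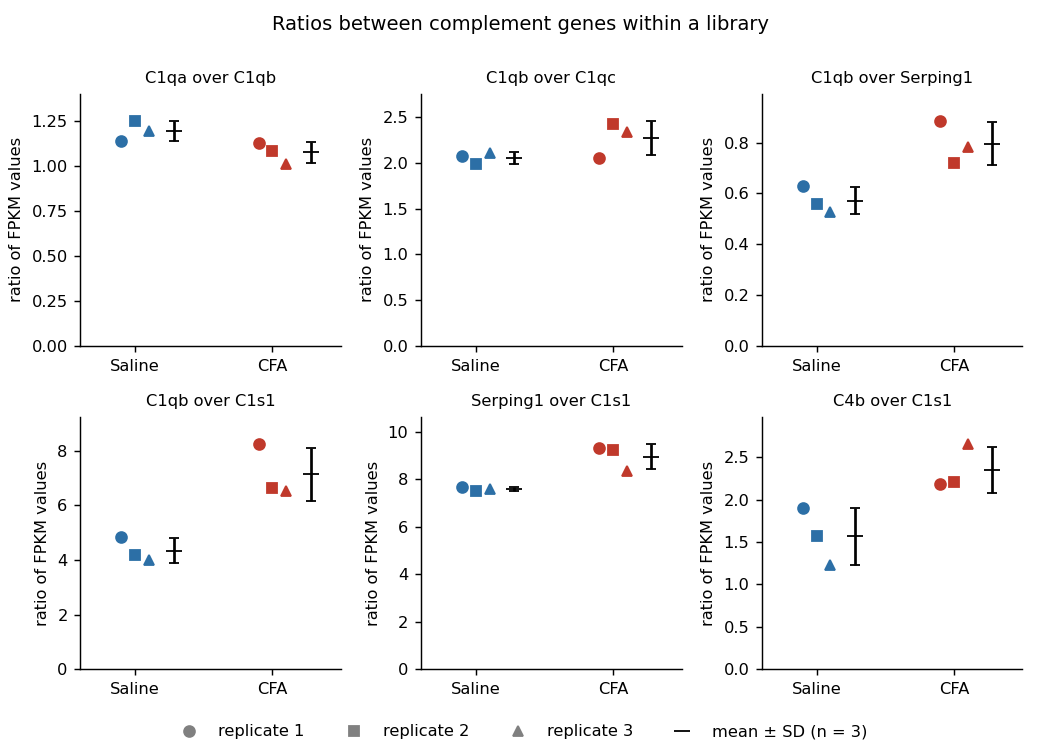
Ratio of the FPKM values of pairs of complement genes within each library (vertical axes, from 0), for saline and CFA; points are libraries, shaped by replicate, and bars are the mean ± SD (n = 3). C1qb over Serping1, C1qb over C1s1, Serping1 over C1s1 and C4b over C1s1 were higher in all CFA libraries, C1qa over C1qb was lower in all of them, and C1qb over C1qc overlapped.

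The wider complement pathway was read from a list of 60 other genes, of which 34 were in the table and 28 were tested. Of these 28, 19 had a higher and 9 a lower mean after CFA, on the log2(FPKM + 1) scale, with a median log2 fold change of 0.083. In limma none passed the adjusted threshold and 3 were at an unadjusted p below 0.05, Vtn and Fcgr1 higher and Sez6 lower, beside 8.32% of all genes tested. In 6 of the 28 every CFA library was above every saline library, beside 7.89% of all genes, and in 3, Cd55, Csmd1 and Sez6, every CFA library was below, beside 6.66%.

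Among 4 other genes that start the classical and lectin arms, 3 had a higher mean and none was at an unadjusted p below 0.05. C2, which is cleaved by C1s next to C4, was at 2.37, 2.43 and 3.42 FPKM in CFA replicates 1 to 3 and at 1.91, 2.18 and 2.11 FPKM in saline replicates 1 to 3. The CFA libraries were all higher, with replicate 3 highest as for C4b, and the log2 fold change was 0.28 (limma adjusted p = 0.621). Mbl2 (mannose-binding lectin), Colec12 (a collectin scavenger receptor) and Masp1 (a lectin pathway protease) overlapped between the groups, with log2 fold changes of 0.36, 0.086 and -0.11. Of the alternative arm, Cfp, which encodes the stabiliser properdin, had a log2 fold change of 0.14, and Cfd, which encodes the protease factor D, ranged from a listed 0 to 2.51 FPKM within the saline group alone. Among the terminal genes of the list, C8g was in the table, at 0.471 to 1.03 FPKM, under the filter.

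Of the 13 other regulators tested, 6 had a higher and 7 a lower mean. Vtn, which encodes vitronectin, an inhibitor of the terminal complex, was at 23.7, 22.1 and 25.9 FPKM in CFA replicates 1 to 3 and at 16.3, 18.7 and 19.6 FPKM in saline replicates 1 to 3. Its groups did not overlap, with a log2 fold change of 0.37 (SE 0.0978, limma adjusted p = 0.378). Sez6, a neuronal membrane protein with complement control domains, was at 2.46, 1.77 and 1.85 FPKM after CFA and 2.88, 2.54 and 2.61 FPKM after saline. Every CFA library was lower, with a log2 fold change of -0.29 (limma adjusted p = 0.593).

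Apart from Vtn, the most abundant regulators encode the terminal inhibitor clusterin (Clu), the membrane inhibitor Cd55, which speeds the decay of C3 convertases, the membrane protein Sez6l2, and Cd59a, which blocks the terminal pore. Clu had means of 95.43 and 85.03 FPKM after CFA and saline and did not overlap between the groups, with a log2 fold change of 0.16 (limma adjusted p = 0.602). Cd55 was at 70.4, 81.4 and 71.8 FPKM after CFA and at 84.6, 85.3 and 82.8 FPKM after saline, lower in all CFA libraries, with a log2 fold change of -0.18 (limma adjusted p = 0.611). Sez6l2 was higher in all CFA libraries, at 38.5 against 35.5 FPKM, and Cd59a overlapped.

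Of the 9 other receptors and C1q-binding proteins tested, 8 had a higher mean log2(FPKM + 1) and C1qbp, a mitochondrial protein that binds C1q, a lower one. For Cd93 and C5ar1 that difference was 0.00061 and 0.0062, and their means in FPKM itself were slightly lower after CFA. Fcgr1, the high-affinity receptor for IgG, binds antibody and is no complement receptor itself. It was at 2.12, 2.62 and 2.10 FPKM in CFA replicates 1 to 3 and at 1.65, 1.19 and 0.994 FPKM in saline replicates 1 to 3. All CFA libraries were higher, with a log2 fold change of 0.53 (SE 0.135, limma adjusted p = 0.364). Calr, which encodes calreticulin, a binding partner of C1q on cell surfaces, had means of 150.0 and 133 FPKM without overlap, and the endocytic receptor Lrp1 and the engulfment receptor Megf10 overlapped. Itgam and Itgb2, the chains of complement receptor 3, were highest in CFA replicate 2 and saline replicate 3, the libraries with the highest neutrophil marker sums. C5ar1, the C5a receptor, overlapped.

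**Figure D3:**
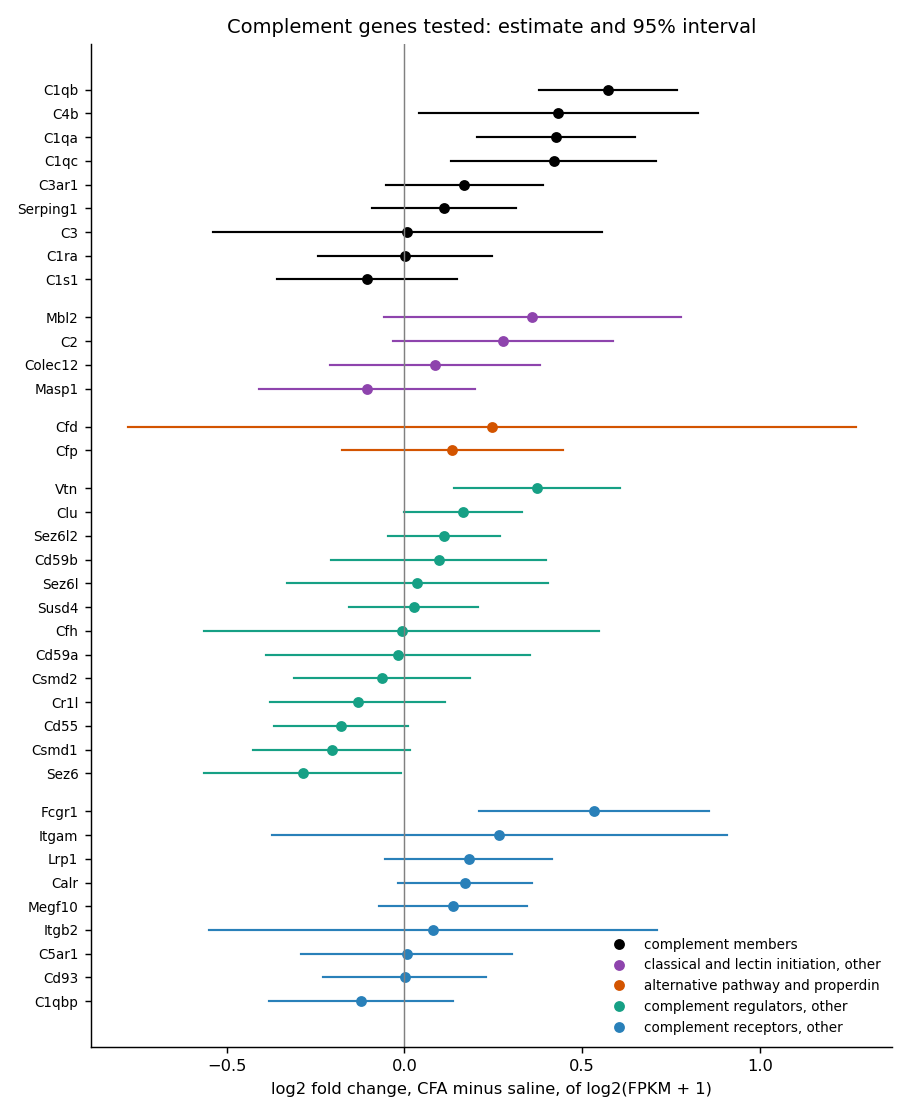
Log2 fold change of log2(FPKM + 1), CFA minus saline, (horizontal axis) with its 95% interval from limma for the 9 complement genes and the 28 other pathway genes tested, coloured by list. The intervals of C1qa, C1qb, C1qc, C4b, Vtn and Fcgr1 lie above 0, that of Sez6 lies below 0, and none of these genes passed the adjusted threshold.

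Since macrophages and microglia express C1q, their markers were set beside it. Of 22 macrophage markers tested, 16 had a higher mean after CFA, 7 of them at an unadjusted p below 0.05, and 2 were lower at that p. Of all 12238 genes tested, 6285 had a higher mean, and at that limma p 5.37% were higher and 2.95% lower. The summed level of the macrophage list was 203 to 239 FPKM after CFA and 164 to 518 FPKM after saline, where the highest value came from saline replicate 3. All 8 microglia markers tested had a higher mean, 4 at an unadjusted p below 0.05, with sums of 358 to 367 FPKM after CFA and 317 to 371 FPKM after saline. The sums overlapped, whereas the mean log2(FPKM + 1) of the microglia list, 3.33 ± 0.0974 after CFA and 2.98 ± 0.116 after saline (SD, n = 3), did not overlap. Among the most abundant macrophage markers, Ctss, a lysosomal protease, had means of 47.9 and 29.0 FPKM without overlap, and the growth factor receptor gene Csf1r had means of 7.94 and 6.34 FPKM, also without overlap. Lyz2, Tyrobp and Fcer1g overlapped, and the mean of Lyz2 was lower after CFA, at 72.4 against 170.5 FPKM. The macrophage markers that were lower at an unadjusted p below 0.05 were the engulfment receptor gene Mertk, lower in every CFA library with means of 4.50 and 6.36 FPKM (log2 fold change -0.41, limma adjusted p = 0.558), and the scavenger receptor gene Cd163, with means of 1.41 and 2.24 FPKM (log2 fold change -0.42, limma adjusted p = 0.580).

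C1qb was also set against the 5 most abundant macrophage markers within each library, and 1 of the ratios separated the groups. The C1qb to Csf1r ratio of FPKM was 5.15, 4.53 and 4.72 in CFA replicates 1 to 3 and 3.91, 4.08 and 3.95 in saline replicates 1 to 3, with no overlap. The ratios of C1qb to Ctss, Tyrobp, Fcer1g and Lyz2 overlapped between the groups, and that to Ctss had a lower mean after CFA, 0.795 against 0.875. The mean log2(FPKM + 1) of the C1q genes minus that of the macrophage list was 2.33 ± 0.260 after CFA and 2.01 ± 0.170 after saline (SD, n = 3), and the same difference from the microglia list was 1.61 ± 0.205 and 1.49 ± 0.110; both overlapped between the groups. The part of macrophage or microglia number in the C1q levels was not tested.

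Markers of other cells moved with the groups as well. All 14 astrocyte and oligodendrocyte markers tested had a higher mean after CFA, 12 at an unadjusted p below 0.05, and their sum was 590 to 673 FPKM against 457 to 542 FPKM. Over all genes tested, 5.37% were higher and 2.95% lower at that limma p. The 11 satellite glia markers summed to 1827 to 2319 FPKM after CFA and 1242 to 1584 FPKM after saline, and 9 had a higher mean. Of 15 fibroblast and meningeal markers tested, 7 had an unadjusted p below 0.05 in the higher direction and 1 in the lower. The mean log2(FPKM + 1) of that list, relative to the mean of the saline libraries, was 0.11 to 0.21 after CFA and -0.052 to 0.029 after saline, without overlap, while its summed level of 539 to 575 FPKM overlapped with 570.4 to 609 FPKM after saline. Of the choroid plexus list, Ttr was at 186 to 258 FPKM after CFA and 1.88 to 2.25 FPKM after saline. Kcnj13 had means of 3.33 and 1.84 FPKM without overlap, and Sostdc1 and Aqp1 overlapped with log2 fold changes of -0.016 and 0.12. Kl (means of 0.693 and 0.354 FPKM) and Clic6 (1.28 and 0.688 FPKM) were under the filter and higher in every CFA library. All 20 interferon-stimulated genes tested had a higher mean, 18 at an unadjusted p below 0.05. The part of central nervous tissue, stromal cells or interferon-stimulated expression in the complement levels was not tested. The hepatocyte genes of the list were represented in the table by Apoa2, at 0.536 to 2.14 FPKM.

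**Figure D4:**
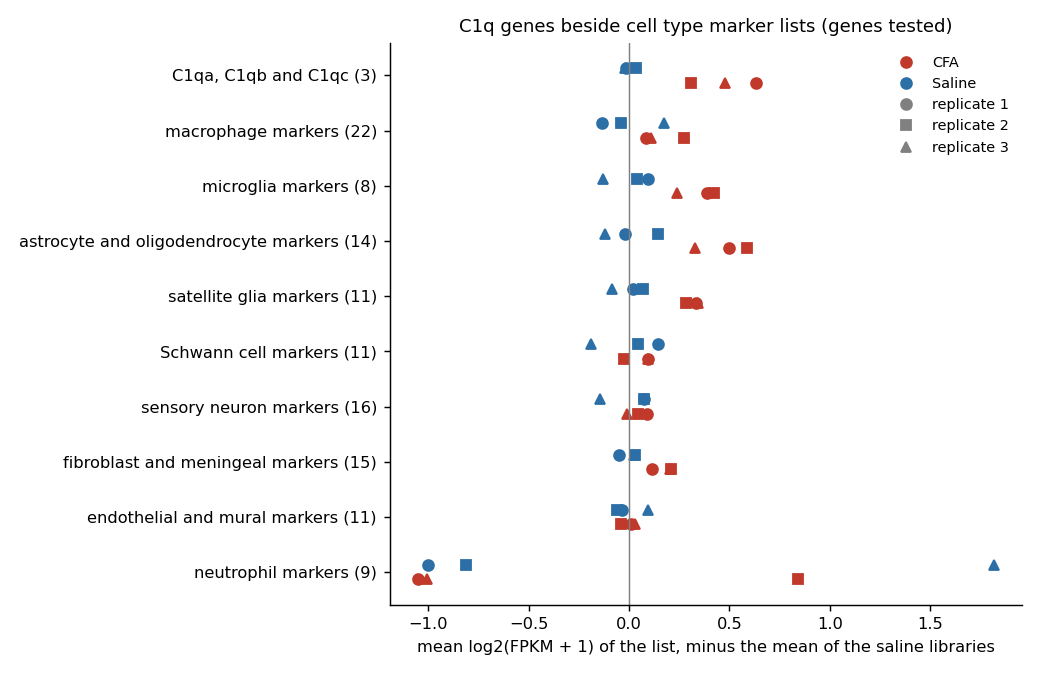
Mean log2(FPKM + 1) of the C1q genes and of each cell type marker list (genes tested in brackets), minus the mean of the saline libraries (horizontal axis); each point is a library, coloured by group and shaped by replicate. The C1q genes separated the groups, and so did the microglia, astrocyte and oligodendrocyte, satellite glia, and fibroblast and meningeal lists, while the macrophage, Schwann cell, sensory neuron, endothelial and mural, and neutrophil lists overlapped.

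By likeness of profile over the 6 libraries, the genes nearest to the mean log2 level of the C1q subunits among 12235 others were Pccb, Gpd1, Rab7b, Gpatch11 and Stmn4, with Pearson r of 0.9803 to 0.9904. With so few libraries 56 genes had an r above 0.95, and the libraries are shared by all genes, so this is a description. C3ar1 ranked 1399th with an r of 0.70 and C4b 1543rd with an r of 0.67. For the mean of C1ra, C1s1 and Serping1, the nearest were Ptpn9, Atg4b, Phka1, Smcr8 and Loxl1, with 53 genes above an r of 0.95. C3 ranked 337th for that profile, with an r of 0.87.

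The C1q subunits passed the adjusted threshold in 1 of the 19 other settings. When limma weighted libraries by their estimated quality, the adjusted p was 0.0366 for C1qa, 0.0109 for C1qb and 0.0476 for C1qc, and 266 genes, 2.17% of those tested, were called. The estimated weights were 2.67 for CFA replicate 1 and 4.99 for saline replicate 2, against 0.469 to 0.588 for the other 4 libraries, so those fits rest mostly on 1 library of each group. In the other 18 settings no complement gene passed. With 1 library left out in turn, the log2 fold change of C1qb was 0.53 to 0.64 with limma adjusted p of 0.0745 to 0.378, and those of C1qa and C1qc were 0.35 to 0.49 and 0.31 to 0.53.

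**Figure D5:**
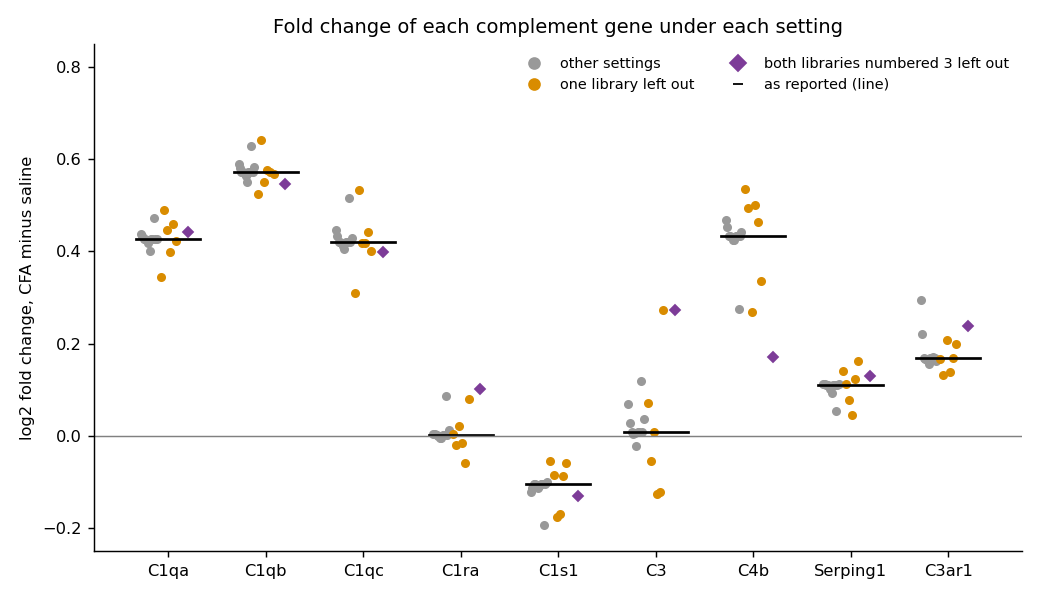
Log2 fold change of each complement gene, CFA minus saline (vertical axis), as reported (line) and under each other setting: 1 library left out (orange), both libraries numbered 3 left out (purple) or another change of processing (grey). C1qa, C1qb, C1qc, C4b, Serping1 and C3ar1 stayed above 0 in every setting drawn and C1s1 below 0, while C1ra and C3 were on both sides.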

How the data were processed

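Expression was measured by poly(A)-selected, stranded RNA-seq of 6 trigeminal ganglion libraries, per the labels' protocols. The authors deposited 1 table of FPKM values per gene with GRCm38 coordinates, and GRCm38 is named in the submitters' processing notes. The sources used here do not give the aligner, quantifier or read numbers. Every deposited gene had a mean of at least 0.501 FPKM in at least 1 group, so a filter on low values had been applied. From these FPKM values, limma 3.58.1 in R 4.3.3 was fitted to log2(FPKM + 1) for genes averaging 1 FPKM or more, CFA against saline, with a mean-variance trend and Benjamini-Hochberg adjustment over all 12238 genes, and the procedure was tested on simulated data. Named genes were all 9 complement genes, pathway genes at an unadjusted p below 0.05 or else up to 4 per list of highest mean, further pathway genes for their role after their values were seen, the 5 of nearest profile, and up to 5 abundant markers per list. Further markers were also named after their values were seen. The genes and lists were chosen with earlier results of these data known. Alternatives changed the pseudocount, filter, scaling, variance model, weights, covariates and libraries. Gene models came from GENCODE M21 and promoters from RefSeq.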

Additional observations from a re-analysis of the deposited data

How the results depend on the processing

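The 19 alternatives were chosen with earlier results of these data known. In limma at adjusted p below 0.05, 7 genes passed as reported, 13 with robust variances, 266 with library quality weights, 1 with the replicate block, 1 with the Gh level as a covariate and 5 to 19 with 1 library left out. Complement genes passing were 3 with quality weights, the C1q subunits, and 0 otherwise. At unadjusted p below 0.05, the 1018 genes became 626 with a mean of at least 5 FPKM, 3574 with quality weights and 616 to 1584 with 1 library left out. The 3 other pathway genes became 1, 10 and 2 to 6 under the same changes. The 4 complement genes became 2 without both libraries numbered 3, when C1qc and C4b were no longer below that p, 3 to 4 with 1 library left out and 6 with quality weights, where C1s1, lower, and C3ar1, higher, were added. C4b, with a log2 fold change of 0.43 as reported, was at 0.27 without CFA replicate 3, 0.28 with quality weights and 0.17 without both libraries numbered 3. C1ra, at 0.0018 as reported, changed sign with a common FPKM total (-0.000456), median-of-ratios scaling (-0.0039) and quantile normalization (-0.0053), and ranged from -0.059 to 0.080 with 1 library left out. C3, at 0.0084 as reported, was -0.023 with quantile normalization and -0.13 to 0.27 with 1 library left out. The other 7 complement genes kept their direction in every setting that tested them, and C3, C3ar1 and C1ra were not tested with a mean of at least 5 FPKM. The cause of these changes was not tested, apart from the smaller number of genes tested under the higher minimum.

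The sources used here do not say whether replicate numbers pair the libraries. Across genes, deviations of same-numbered libraries from their group means correlated at 0.0803, 0.111 and -0.0475. Those of differently numbered libraries correlated at -0.182 to 0.113. With 3 libraries per group, these values cannot decide whether the libraries were paired. With the replicate block, 3 complement genes were at an unadjusted p below 0.05, and C1qb had a limma adjusted p of 0.393. The read depth is unknown, so no limit of detection can be given for genes near 1 FPKM, such as C3 and C3ar1.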
